A study of Pleurotus ostreatus with 9 samples.

Results

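The transcriptome described here is that of untreated mycelium of the oyster mushroom Pleurotus ostreatus. It rests on the 3 control cultures of a series of 9, and no treated culture enters any level, rank or spread below. All 10623 mRNA rows of the 10682 rows in the deposited gene table were ranked by their mean FPKM over the 3 controls (fragments per kilobase of transcript, scaled to the depth of the library, a level that allows for transcript length) and were summed by the table's KEGG pathway and gene ontology (GO) columns. Strain GEMB-PO1 was grown in shaken GYP medium, a broth whose glucose (20 g/L) stands beside peptone and yeast extract (both at 5 g/L). The cultures were kept at 28 °C with shaking at 180 rpm, and mycelium was taken on day 3. The labels record that the controls had no chemical added and name no vehicle, genetic change or transgene. The series design calls the cultures biological replicates, and all libraries carry the same batch label. Libraries were made from poly(A) RNA with the strand marked by dUTP and were read as pairs of 150 bp. The gene models carry identifiers of the PLEOSDRAFT series, and 613 of the 10623 mRNA rows have a description other than an uninformative one, so most names below are orthology, enzyme or GO annotations and not measured activities.

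Mycelium is the feeding and growing body of a mushroom, a net of hyphae that extend at their tips and secrete enzymes into the medium. Oyster mushroom is a white-rot fungus, known for laccases and heme peroxidases that attack lignin, and its hyphae are coated with hydrophobins, small secreted proteins that form water-repellent films. Heat shock proteins fold and refold other proteins, and the glyoxylate cycle with phosphoenolpyruvate carboxykinase turns carbon from acetate and fatty acids into sugar.

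The 3 control libraries held 47722359, 41827309 and 48205358 counts, within the 38098599 to 49161706 of the whole series. The number of mRNA genes with a count was 10316, 10347 and 10396 in cultures 1, 2 and 3, and the number at 1 FPKM or more was 9253, 9427 and 9486. No pair of libraries agreed within the noise of sampling, with a chi-square per degree of freedom of 116 for cultures 1 and 2, 325 for cultures 1 and 3 and 179 for cultures 2 and 3, so none was taken for a repeat deposit of another. Libraries made separately from a single culture would also pass that check. Culture 3 stood apart: genes at 1 FPKM or more that lay at least 2-fold apart numbered 944 between cultures 1 and 3 and 551 between cultures 2 and 3, and 308 between cultures 1 and 2. By FPKM the median gene of culture 1 was lower than in culture 2 by 0.18 and than in culture 3 by 0.21 on the log2 scale. TMM scaling, edgeR's correction for libraries in which a few genes take up much of the depth, gave factors of 0.903, 1.05 and 1.05, which raises culture 1 relative to the others; directions that turn under it are named below. In bulk RNA, fewer cells of a kind and less RNA per cell cannot be told apart.

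The labelled tissue was set against its own markers. The hydrophobin described as that of vegetative mycelium, PLEOSDRAFT_1091049 (Vmh2), had 569.9, 611 and 843 FPKM in cultures 1, 2 and 3. The hydrophobin described as fruit body specific, PLEOSDRAFT_47325, had 0.132, 0.229 and 0.237 FPKM. Fruiting-associated pore-forming proteins were also low, with 2.12, 2.21 and 5.53 FPKM for an ostreolysin-like gene (PLEOSDRAFT_1090164) and 4.23, 5.73 and 11.8 FPKM for a pleurotolysin B precursor (PLEOSDRAFT_1090161). A flammutoxin-like gene of the same kind (PLEOSDRAFT_168572) had 11.5, 8.31 and 10.2 FPKM. The ostreolysin-like and pleurotolysin B genes were more than 2-fold higher in culture 3 than in culture 1, as they were under TMM scaling. No description in the table names a lectin.

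Transcript levels spanned several orders of magnitude. The median mRNA gene had a mean of 17.3 FPKM, the middle 50% of genes lay between 4.04 and 49.8 FPKM, and the most abundant gene had 14825 FPKM. Genes of 10 to 100 FPKM were the largest class, with 5192 members (48.9% of genes) and 27.1% of the summed level. The 67 genes at 1000 FPKM and over, 0.631% of genes, held 23.97%. The most abundant gene alone held 2.63%, 1.81% and 1.91% of summed FPKM in cultures 1, 2 and 3, the top 10 held 11.8%, 9.33% and 10.8%, and the top 100 held 29.8%, 26.8% and 27.7%. Ranked by the mean, 441 genes (4.15%) held 50% of the summed level. The same gene led in all 3 cultures, 8 genes were in the top 10 of every culture, and 79 were in the top 100 of every culture.

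**Figure D1:**
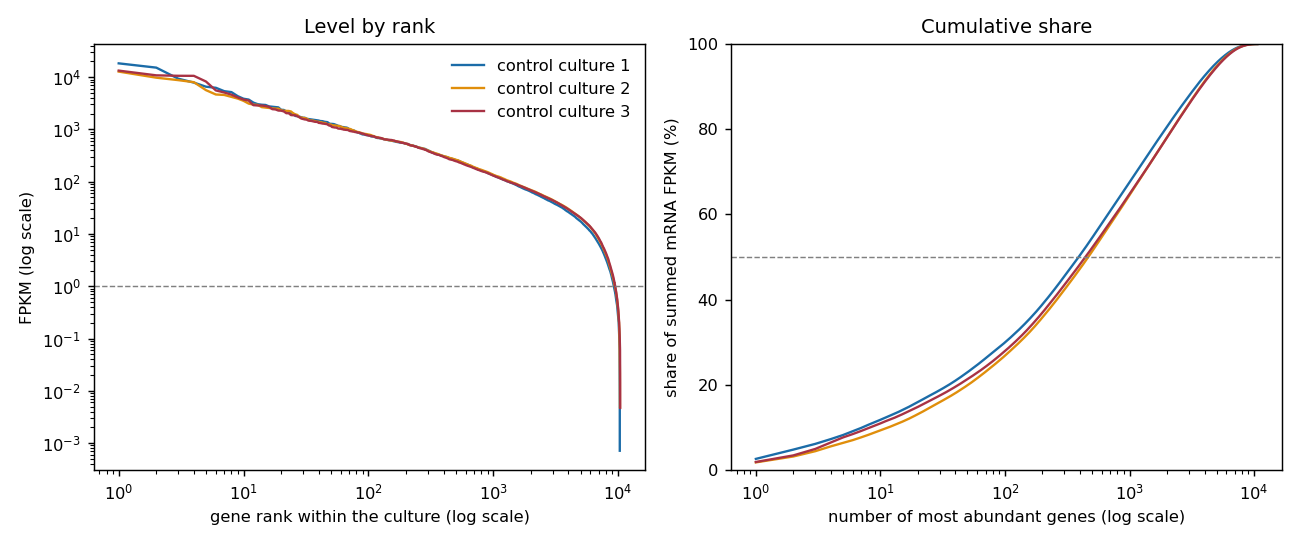
Left, FPKM (log scale) of each mRNA gene with a count against its rank within its culture (log scale), 1 line per control culture, with a dashed line at 1 FPKM; right, the share of summed mRNA FPKM (%) held by the most abundant genes against their number (log scale), with a dashed line at 50%. The lines lie close together, and culture 1 runs highest on the right, with 29.8% in its top 100 genes against 26.8% in culture 2 and 27.7% in culture 3.

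Heat shock proteins led the transcript pool. The most abundant transcript, PLEOSDRAFT_1087719, is annotated by orthology as a cytosolic Hsp70, an ATP-driven chaperone. It had 18362, 12772 and 13342 FPKM in cultures 1, 2 and 3 (14825 ± 3076 FPKM, SD, n = 3) and took 3.68% of all counts. At rank 2 stood PLEOSDRAFT_1053318, a small heat shock protein of the HSP20 family, whose members hold unfolding proteins without ATP. Its level was 15208, 9767 and 10598 FPKM. The only Hsp90 gene by orthology, PLEOSDRAFT_1052040, the chaperone of many kinases and receptors, ranked 5 with 7869, 5642 and 5571 FPKM. In all 3 of these genes culture 1 was the highest and cultures 2 and 3 lay close to each other.

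Levels within these families were uneven. Of the 4 genes with the Hsp70 orthology number, the first held 97.3% of the family's summed FPKM. The next, PLEOSDRAFT_1052407, had 255, 297 and 429 FPKM, and the other two had 27.8, 39.4 and 61.7 FPKM (PLEOSDRAFT_1049195) and 46.2, 44.8 and 35.0 FPKM (PLEOSDRAFT_166613). PLEOSDRAFT_1052407 and PLEOSDRAFT_1049195 were highest in culture 3, unlike the leading gene. The HSP20 family had 7 genes, all at 1 FPKM or more and 5 of them at 100 FPKM or more, with a family median of 1450.4 FPKM against 17.3 FPKM for all mRNA genes. Further HSP20 members were PLEOSDRAFT_1090083 at 2759, 2504 and 2412 FPKM, PLEOSDRAFT_1090983 at 2967, 2274 and 2213 FPKM and PLEOSDRAFT_1090145 at 1510.3, 1375 and 1466 FPKM, and the lowest was PLEOSDRAFT_1090314 at 14.5, 20.2 and 18.6 FPKM. Chaperones of the organelles were far lower: a mitochondrial-type HSP60 (PLEOSDRAFT_1073596) had 272, 317 and 345 FPKM, and the leading Hsp70 of the endoplasmic reticulum type (PLEOSDRAFT_62237) had 306, 329 and 431 FPKM. Both were lowest in culture 1 by FPKM but not under TMM scaling, with ranges of 1.09-fold and 1.31-fold there. How the authors' counting treated reads that near-identical copies share is not stated, so levels of single members of these and the other gene families below are less certain than those of the families.

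The 20 genes of the heat shock families together held 7.32%, 5.18% and 5.45% of summed FPKM in cultures 1, 2 and 3. Culture 1 was highest by FPKM and under TMM scaling, with a ratio of highest to lowest culture of 1.40 by FPKM and 1.63 under TMM. Of the 19 members at 1 FPKM or more, 1 (5.26%) lay 2-fold or more apart between cultures, PLEOSDRAFT_1049195 (1.91-fold under TMM). Over all 9420 genes at 1 FPKM or more 12.6% did, but 11 of the 20 family genes were at 100 FPKM or more. Among all genes the share was 7.82% at 100 to 1000 FPKM and 4.48% at 1000 FPKM and over, so the family was near the share of its level. The list was drawn up after these levels were seen. Another list, of 66 genes with chaperone or unfolded protein terms, does not include the leading Hsp70 gene and held 5.37%, 3.96% and 4.29%. Among its members in the top 30, PLEOSDRAFT_1088541, an ATPase with a protein refolding term, had 5397, 3886 and 5091 FPKM, and PLEOSDRAFT_1067221, with protein folding and unfolded protein binding terms, had 3722, 3116 and 2868 FPKM. A peptidyl-prolyl isomerase (PLEOSDRAFT_186045), of a class that turns proline bonds during folding, had 2358, 2256 and 1782 FPKM. The growth temperature given is 28 °C for all cultures, and no culture at another temperature was analysed here.

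**Figure D2:**
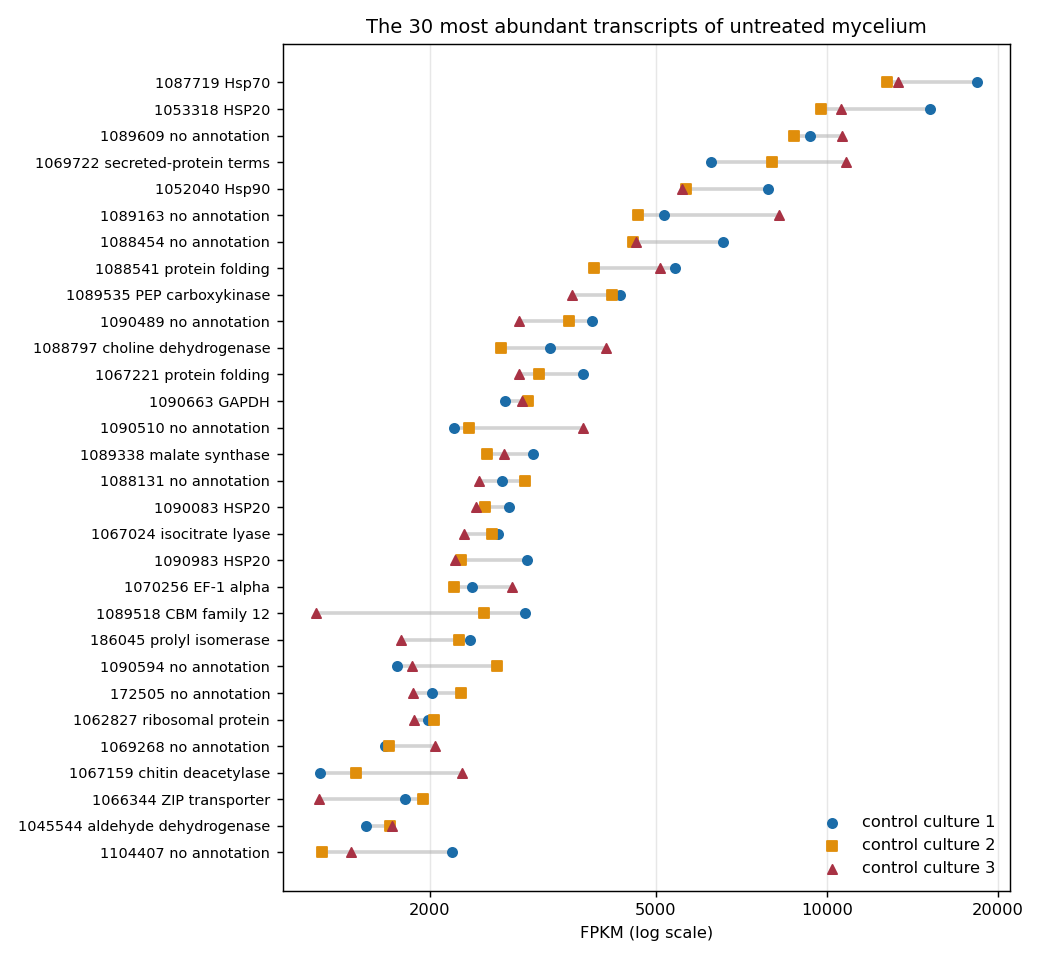
FPKM (log axis) of the 30 most abundant mRNA genes in each control culture, 1 row per gene in order of the mean, with the identifier's number and a short form of its annotation; each grey bar joins the lowest and the highest culture. The heat shock genes at ranks 1, 2 and 5 are highest in culture 1, and the bars of all 29 neighbouring pairs overlap.

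Many of the most abundant transcripts have no annotation at all. The gene at rank 3, PLEOSDRAFT_1089609, had 9344, 8767 and 10619 FPKM and carries no informative description, ontology term or orthology number. The same holds for PLEOSDRAFT_1089163 at 5172, 4658 and 8252 FPKM, PLEOSDRAFT_1088454 at 6566, 4567 and 4624 FPKM and PLEOSDRAFT_1090489 at 3865, 3522 and 2869 FPKM. Annotation was missing for 4 of the top 10 genes, 10 of the top 30 and 33 of the top 100. Genes with no annotation made up 42.4% of mRNA genes (4505) and held 30.9%, 31.2% and 29.8% of summed FPKM in the 3 cultures. Their median level was 8.84 FPKM, against 24.7 FPKM for the 6118 annotated genes. The gene at rank 4, PLEOSDRAFT_1069722, is annotated only with terms for pathogenesis and for a protein secreted onto a host, a term from bacterial secretion. It had 6262, 8011 and 10832 FPKM, highest in culture 3, and made up 46.2% of the summed FPKM of the 80 genes that carry the pathogenesis term.

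Neighbouring ranks should not be read as different levels. All 29 neighbouring pairs among the top 30 overlapped in their range over the 3 cultures. Only 1 of the top 30 lay 2-fold or more apart between cultures. That gene, PLEOSDRAFT_1089518, holds a carbohydrate-binding module of family 12, a module known from chitin-binding proteins, and had 2939, 2497 and 1261 FPKM.

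Enzymes that carry carbon toward sugar were among the top 30. The ATP-type phosphoenolpyruvate carboxykinase PLEOSDRAFT_1089535, which makes phosphoenolpyruvate from oxaloacetate, ranked 9 with 4319.6, 4185 and 3559 FPKM. Malate synthase PLEOSDRAFT_1089338 had 3040.4, 2528 and 2703 FPKM and isocitrate lyase PLEOSDRAFT_1067024 had 2642, 2573 and 2296 FPKM. These enzymes make up the glyoxylate bypass of the citrate cycle, and by FPKM their levels were within about 1.20-fold across cultures. Each also had a less abundant further gene, an isocitrate lyase (PLEOSDRAFT_1054346) with 93.4, 114 and 109 FPKM and a malate synthase (PLEOSDRAFT_32314) with 33.4, 37.0 and 36.9 FPKM. Fructose-1,6-bisphosphatase (PLEOSDRAFT_1110500), a further step of sugar synthesis, had 565, 687 and 546 FPKM. The 4 genes of the glyoxylate list held 0.833%, 0.745% and 0.735% of summed FPKM and the 4 genes of the gluconeogenic list 0.709%, 0.699% and 0.595%. In that order, the ratios of highest to lowest culture were 1.13 and 1.19 by FPKM and 1.31 and 1.38 under TMM scaling. Culture 1 was highest in each. Both lists were drawn up after these levels were seen.

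Transcripts of glycolysis, the citrate cycle and respiration were also abundant, and they varied little by FPKM. Glyceraldehyde-3-phosphate dehydrogenase PLEOSDRAFT_1090663 had 2712, 2979 and 2911 FPKM, enolase PLEOSDRAFT_1063312 had 1044, 1097 and 994 FPKM and citrate synthase PLEOSDRAFT_1110467 had 802, 918 and 745 FPKM. The 59 glycolysis and gluconeogenesis genes held 2.61%, 2.66% and 2.67% of summed FPKM, the 37 citrate cycle genes 1.72%, 1.73% and 1.60% and the 87 genes of oxidative phosphorylation 2.67%, 2.72% and 2.58%. In that order, the ratios of highest to lowest culture were 1.03, 1.09 and 1.06 by FPKM, with the summed level of culture 2 highest in each. Under TMM scaling they were 1.13, 1.25 and 1.20, with culture 1 highest in each. Of the oxidative phosphorylation genes all 87 were at 1 FPKM or more and 2 (2.30%) lay 2-fold or more apart, against 12.6% of all genes at that level. Among all genes of 100 to 1000 FPKM the share was 7.82%. The 87 genes had a median level of 153 FPKM and a median coefficient of variation of 7.26%. That coefficient was 16.7% for all genes at 1 FPKM or more and 11.7% for those of 100 to 1000 FPKM. Cytochrome c oxidase subunit COX5A (PLEOSDRAFT_38932) had 876, 978 and 855 FPKM, and the alpha subunit of the mitochondrial ATP synthase (PLEOSDRAFT_1066202) had 886, 864 and 869 FPKM. The 54 genes of fatty acid degradation held 0.741%, 0.742% and 0.802%, led by an alcohol dehydrogenase (PLEOSDRAFT_1091892) at 1242, 1163 and 1615 FPKM.

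Protein synthesis took a similar share to the heat shock families but was spread over many genes. The 172 genes with ribosomal protein annotations held 5.83%, 6.27% and 6.66% of summed FPKM in cultures 1, 2 and 3. All 172 were at 1 FPKM or more, 84 at 100 FPKM or more, and their median was 89.7 FPKM. The KEGG ribosome pathway is narrower, with 113 genes. It had a median of 338 FPKM and 77 genes at 100 FPKM or more. For the list of 172, culture 3 was highest by FPKM and culture 1 under TMM scaling. The ratio of highest to lowest was 1.15 and 1.07, so no order of the cultures is drawn from this group. Its most abundant gene, PLEOSDRAFT_1062827, had 1989, 2036 and 1880.0 FPKM and held 4.49% of the group. The KEGG pathway, whose leading gene averaged 1243 FPKM, does not include PLEOSDRAFT_1062827. Elongation factor 1 alpha (PLEOSDRAFT_1070256), which brings aminoacyl-tRNA to the ribosome, had 2376, 2203 and 2797 FPKM. The 123 genes of ribosome biogenesis had a lower median of 19.0 FPKM. Of the 122 at 1 FPKM or more, 17 (13.9%) lay 2-fold or more apart, near the 12.6% of all genes at that level; under TMM scaling 4 did.

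Other household genes and stress enzymes filled the next ranks. Actin (PLEOSDRAFT_1087906) had 1275, 1328 and 1201 FPKM, a ubiquitin-conjugating enzyme (PLEOSDRAFT_1091903) 1703, 1485 and 1478 FPKM and glutamine synthetase (PLEOSDRAFT_1089099), which fixes ammonia, 1437, 1328 and 1406 FPKM. A choline dehydrogenase by orthology (PLEOSDRAFT_1088797) had 3255, 2669 and 4084 FPKM and an aldehyde dehydrogenase with a glyoxalase III term (PLEOSDRAFT_1045544) 1547, 1700.1 and 1719 FPKM. Among 75 genes with oxidative stress terms, 24 were at 100 FPKM or more. A thioredoxin peroxidase (PLEOSDRAFT_1059662), which removes peroxides, had 1389.6, 1893 and 1551 FPKM, and a manganese or iron superoxide dismutase by orthology (PLEOSDRAFT_1095940) had 933, 1138 and 864 FPKM. A zinc transporter of the ZIP family (PLEOSDRAFT_1066344) led the 217 transmembrane transporters with 1807, 1943 and 1275 FPKM. Transporters as a whole held 1.93%, 1.99% and 1.96% of summed FPKM, peptidases 1.65%, 1.64% and 1.61% and sequence-specific transcription factors 0.903%, 0.926% and 0.856%.

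Less abundant groups completed the picture. Of the genes with the term for oxidoreductases acting on paired donors, which many cytochrome P450 enzymes carry, 114 were at 1 FPKM or more and 5 at 100 FPKM or more, and their median was 4.28 FPKM. Their leading gene, PLEOSDRAFT_1049677, had 177, 191 and 306 FPKM. The 70 genes of fatty acid and sterol synthesis held 0.753%, 0.861% and 0.844% of summed FPKM. Of the 65 at 1 FPKM or more, 15 (23.1%) lay 2-fold or more apart, against 12.6% of all genes at that level, and 12 did under TMM scaling. By FPKM 9 of the 15 were highest in culture 3 and 5 were lowest there. Among these, squalene monooxygenase (PLEOSDRAFT_1046279), an early enzyme of ergosterol synthesis, had 24.1, 25.8 and 6.24 FPKM and was lowest in culture 3. Histone 3 (PLEOSDRAFT_1070599) had 671, 646 and 650.4 FPKM, and 12 histone and nucleosome genes held 0.256%, 0.214% and 0.256%. The leading alcohol oxidase (PLEOSDRAFT_1109402) averaged 116 ± 23.8 FPKM (SD, n = 3), and the 5 genes of that list held 0.0315%, 0.0319% and 0.0258%. The 35 ABC transporter genes, pumps driven by ATP, held 0.198%, 0.180% and 0.164% and had a median of 20.5 FPKM.

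**Figure D3:**
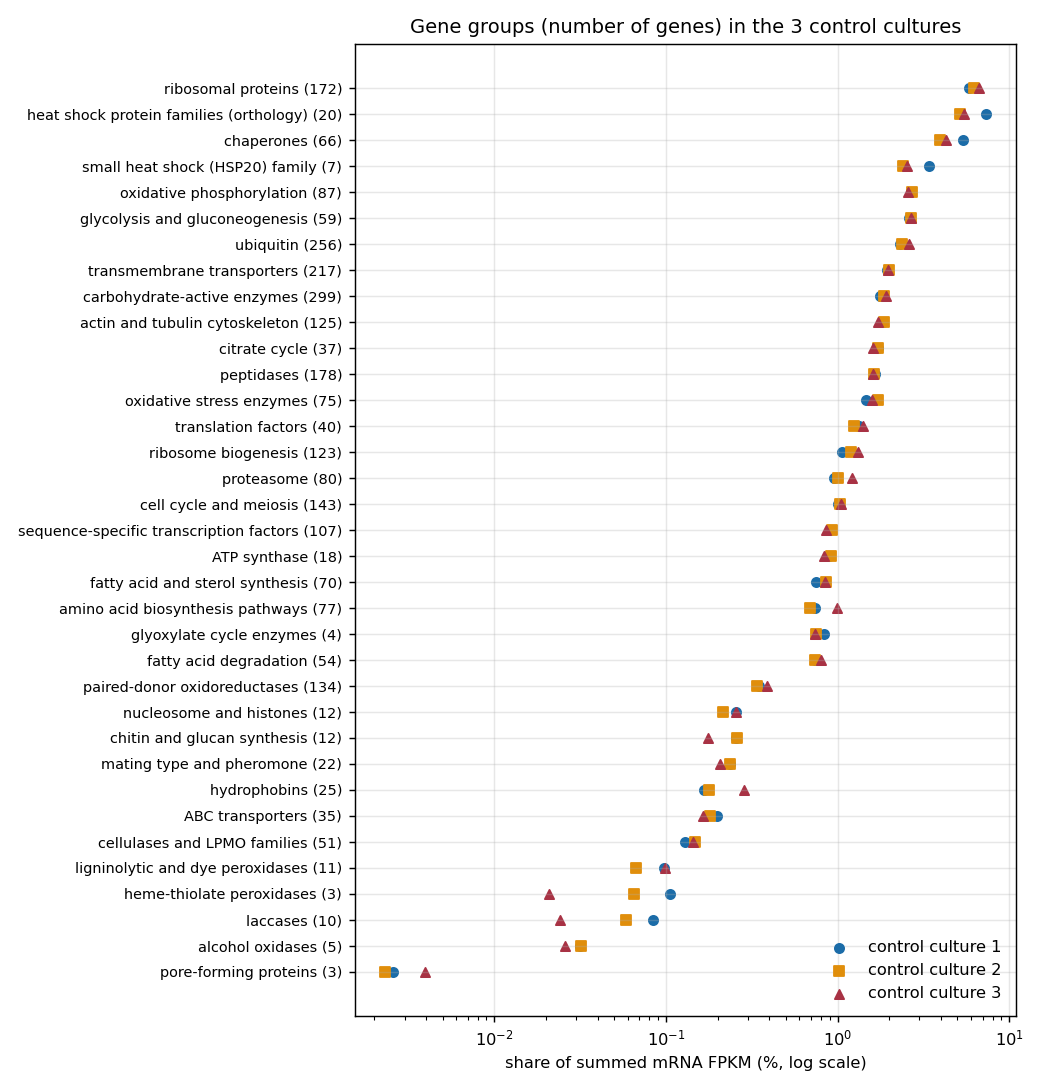
Share of summed mRNA FPKM (%, log axis) held by each gene group in each control culture, 1 row per group with its number of genes in parentheses. Most rows hold 3 close points, whereas laccases, heme-thiolate peroxidases and chitin and glucan synthesis are lowest in culture 3 and hydrophobins and amino acid biosynthesis highest there. The chitin and glucan row includes PLEOSDRAFT_1060354, a gene without a synthase orthology number that had 343, 269 and 54.6 FPKM in cultures 1, 2 and 3.

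Summed by KEGG, protein processing in the endoplasmic reticulum came first among 127 pathways, with 117 genes and 8.44%, 6.33% and 6.69% of summed FPKM. Its mean share of 7.15% was 5.03% without the leading Hsp70 gene. Ribosome followed with 113 genes and 5.21%, 5.60% and 6.05%, with no gene 2-fold apart, and its mean share of 5.62% is above the 5.03%, so the first place also rested on that gene. Endocytosis with 3.47% and spliceosome with 3.14% came next, and both ranks rested on the same Hsp70 gene, which KEGG places in all 3 of these pathways. That gene made up 60.9% of endocytosis and 67.4% of spliceosome, which held 1.36% and 1.02% without it. Oxidative phosphorylation held 2.66%, glycolysis and gluconeogenesis 2.65%, pyruvate metabolism 2.05% and glyoxylate and dicarboxylate metabolism 1.96%. In all, 3062 genes had a pathway and held 42.8% of summed FPKM. Among the 1133 GO terms of 5 to 300 genes, structural constituent of ribosome led with 149 genes and 5.20%, 5.60% and 5.92%, ahead of protein binding with 4.84%, and unfolded protein binding held 3.57% in 41 genes.

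Cell surface genes had a few abundant members and many low ones. Of 25 hydrophobin genes, 17 were at 1 FPKM or more and 2 at 100 FPKM or more. Vmh2 and the class I hydrophobin PLEOSDRAFT_1060612, with 408, 444 and 774 FPKM, were the leading members, and the median of the 25 was 3.52 FPKM. Hydrophobin 3 (PLEOSDRAFT_1114379) had 30.7, 66.4 and 107 FPKM. All of these were highest in culture 3, and the group held 0.166%, 0.179% and 0.286% of summed FPKM, a 1.73-fold spread that was 1.59-fold under TMM scaling. The remaining hydrophobins ranged from 0.0863 to 50.5 FPKM in their mean. The list of chitin and glucan synthesis, which build the fungal wall, had 12 genes, all at 1 FPKM or more. It includes a partial gene model, PLEOSDRAFT_1060354, without a synthase orthology number. That gene had 343, 269 and 54.6 FPKM in cultures 1, 2 and 3, a 6.28-fold range that was the widest of the list. Chitin synthase PLEOSDRAFT_1054937 had 425, 379 and 258 FPKM, and the glucan synthases PLEOSDRAFT_1052138 and PLEOSDRAFT_1091186 had 153, 175 and 168 FPKM and 157, 170.3 and 154 FPKM. A chitin deacetylase (PLEOSDRAFT_1067159), which turns chitin into chitosan, had 1282, 1483 and 2282 FPKM.

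Genes of mating and pheromone signalling were present at low to moderate levels. A G protein subunit of the pheromone pathway by orthology (PLEOSDRAFT_1088718) had 405, 377 and 318 FPKM, and a pheromone-like peptide gene (PLEOSDRAFT_1073025) had 99.5, 74.6 and 33.4 FPKM. A B mating type pheromone receptor (PLEOSDRAFT_1079000) had 4.77, 5.55 and 5.90 FPKM, and an A mating type protein (PLEOSDRAFT_155731) had 0.184, 0.137 and 0.134 FPKM. Of the 22 genes of this list, 21 were at 1 FPKM or more.

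Lignin-attacking enzymes were a small part of the pool. The 10 genes described as laccases, copper oxidases that act on phenols, or as laccase subunits held 0.0844%, 0.0587% and 0.0240% of summed FPKM in cultures 1, 2 and 3. Their most abundant gene encodes the small subunit of laccase POXA3a (PLEOSDRAFT_1067572), with 198, 153 and 45.7 FPKM. The laccases PLEOSDRAFT_1089723 and PLEOSDRAFT_1067328 had 199, 82.2 and 25.2 FPKM and 121, 107 and 35.5 FPKM. All 3 genes were lowest in culture 3, and the group differed 3.50-fold between highest and lowest culture (4.07-fold under TMM). Of the 9 genes at 1 FPKM or more, 4 (44.4%) lay 2-fold or more apart, against 12.6% of all genes at that level. These 4 were all lowest in culture 3. Laccase PLEOSDRAFT_1113032 did not share this, with 32.1, 22.9 and 30.9 FPKM, and the gene described as laccase 1 (PLEOSDRAFT_1089733) was near the bottom of the range at 0.388, 0.376 and 0.343 FPKM.

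Of the 11 manganese, versatile and dye-decolorizing peroxidase genes, a single dye-decolorizing peroxidase (PLEOSDRAFT_1069077) held 92.0% of the group's summed FPKM, with 636, 424 and 635 FPKM. A putative versatile peroxidase (PLEOSDRAFT_1089895) had 26.9, 24.7 and 32.8 FPKM. The 5 short manganese peroxidases ran from 0.405, 0.417 and 0.397 FPKM (PLEOSDRAFT_199510) to 4.49, 5.65 and 5.51 FPKM (PLEOSDRAFT_1099081). Enzymes that act on plant cell walls were also low: the 51 genes of the cellulase families and the GH61 family, oxidases that open up cellulose, had a median of 1.82 FPKM, and 39 reached 1 FPKM. The exception was the GH61 gene PLEOSDRAFT_1098120 at 702, 802 and 786 FPKM, which made up 77.6% of the group. All 299 genes with carbohydrate-active enzyme annotations held 1.76%, 1.85% and 1.91%, with a median of 4.88 FPKM.

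Few genes were silent. Of 10623 mRNA genes, 98 (0.923%) had no count in any of the 3 control libraries, which together held 137754829 counts on mRNA rows, so that a floor of 3 counts over the 3 libraries is the most that each 0 allows. Of the 98 genes 17 (17.3%) had any annotation, against 61.5% of genes at 1 FPKM or more, and none had an informative description. The 8 silent genes with a KEGG pathway were looked up after their values were seen. They include a terpene synthase (PLEOSDRAFT_1041418), a tyrosinase by orthology (PLEOSDRAFT_1104248), an ornithine carbamoyltransferase of arginine synthesis (PLEOSDRAFT_1100658), a fatty acid synthase subunit (PLEOSDRAFT_155425), a hexose transporter (PLEOSDRAFT_1077375), an amidase (PLEOSDRAFT_1107203) and a protein phosphatase (PLEOSDRAFT_1034329). The last, PLEOSDRAFT_1009535, has a kinase term that its orthology number does not share. Silent gene models were short, with a median span of 766 bp on the genome against 1449 bp for all mRNA genes. Every row of the table has a count in at least 1 of the 9 libraries, so a gene at 0 throughout the series would not be seen here. The silent genes accordingly had counts in the other 6 libraries, in sums over those libraries of 1 to 402 counts with a median of 7.50, and 8 of them had a single count there.

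A wider fringe of genes lay just above silence. A further 201 genes had a count but a mean under 0.1 FPKM, and 1203 genes (11.3%) had a mean under 1 FPKM. Of these 1203, 328 (27.3%) were annotated. Another 361 genes had no count in 1 or 2 of the cultures and a count elsewhere. Low genes often lay side by side on the genome: 39.2% of genes under 1 FPKM had an adjacent gene under 1 FPKM, as had 18.0% of the other genes. For silent genes the shares were 10.2% and 1.71%. The gene descriptions name another strain, PC15, and whether sequence differences from GEMB-PO1 contribute to low counts was not tested.

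A few genes were all or none among the 3 cultures. Genes with at least 100 counts in 1 culture and 0 in another numbered 3. PLEOSDRAFT_1045412, without annotation, had 558, 0 and 0 counts in cultures 1, 2 and 3. PLEOSDRAFT_1109467, with RNA polymerase II regulatory DNA binding terms, had 0, 561 and 910 counts. PLEOSDRAFT_14618, a partial gene model, had 0, 136 and 0 counts. These genes were singled out after their values were seen.

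The spread among cultures was larger than counting error at every level. Over the 9420 genes at 1 FPKM or more (88.7% of mRNA genes), the median coefficient of variation was 16.7%, with quartiles of 9.88% and 26.2%, where Poisson counting alone would give a median of 2.71%. By level, the median was 23.9% for genes of 1 to 10 FPKM, 14.96% for 10 to 100, 11.7% for 100 to 1000 and 13.7% for 1000 and over. The highest culture was at least 2 times the lowest for 1186 genes (12.6%), at least 5 times for 77 and at least 10 times for 30, while 682 genes (7.24%) stayed within 1.1 times. The common biological coefficient of variation, edgeR's estimate of the spread between cultures beyond counting error, was 0.236. Of the 1186 genes, 627 were highest in culture 3, 290 in culture 1 and 269 in culture 2. Under TMM scaling 1039 genes lay 2-fold apart, 409 of them highest in culture 3, 468 in culture 1 and 162 in culture 2. Without culture 3, genes 2-fold apart numbered 308 and the common value was 0.172. Without culture 1 these were 551 and 0.228, and without culture 2 they were 944 and 0.282. The median coefficient of variation was 12.1% without culture 3, 11.8% without culture 1 and 17.6% without culture 2, so the pair of cultures 1 and 3 lay farthest apart in each measure.

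**Figure D4:**
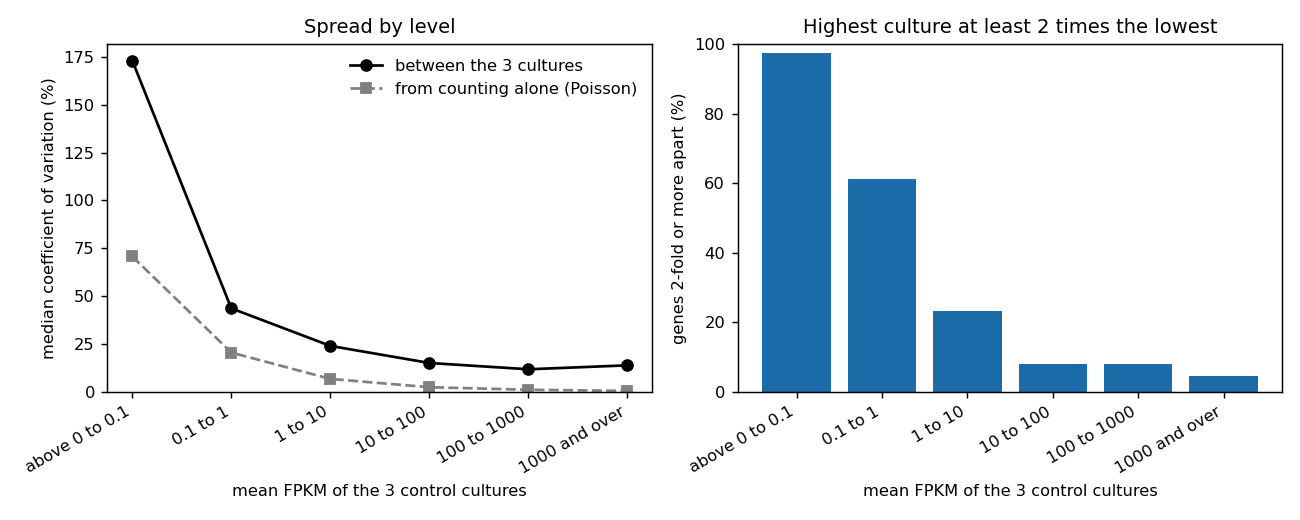
Left, median coefficient of variation (%) among the 3 control cultures for mRNA genes in classes of mean FPKM, with the median that Poisson counting alone gives; right, bars of the percentage of genes in each class whose highest culture is at least 2 times the lowest. From 1 FPKM upward the observed spread is 23.9% or less and stays above the counting line, and the bars fall to 4.48% at 1000 FPKM and over.

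Culture 3 departed alone more often than the others, by FPKM and under TMM scaling. Genes at least 2 times higher in culture 3 than in both other cultures numbered 221, and genes at least 2 times lower than in both numbered 180; TMM scaling gave 179 and 208. For culture 1 the numbers were 72 high and 112 low, and 18 high and 20 low for culture 2; TMM scaling gave 104 and 46 for culture 1 and 11 and 31 for culture 2. Of the genes high in culture 3, 139 of 221 (62.9%) were annotated, and of those low in it, 66 of 180 (36.7%), against 61.5% of all genes at 1 FPKM or more. All cultures share their labels for medium, harvest and batch, and the cause of the departure was not tested.

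Part of the DNA replication genes were higher in culture 3. Of the 49 genes of this KEGG pathway, 26 lay 2-fold or more apart, and all 26 were highest in culture 3; under TMM scaling these numbers were both 24. Of all genes 2-fold apart, 52.9% were highest in culture 3 by FPKM, and 409 of 1039 under TMM scaling. Across all genes at 1 FPKM or more 12.6% lay 2-fold apart, and 23.3% of those at 1 to 10 FPKM. The difference lay mostly in the low members: 24 of the 37 genes under 20 FPKM, a limit chosen after the values were seen, lay 2-fold apart, against 2 of the 12 genes at 20 FPKM or more. The MCM subunits form the ring helicase that opens DNA, and 10 genes carry their 6 orthology numbers. MCM7 (PLEOSDRAFT_1033539) had 3.08, 3.92 and 14.7 FPKM in cultures 1, 2 and 3. The single genes for MCM3 (PLEOSDRAFT_1037207), MCM5 (PLEOSDRAFT_1035453) and MCM6 (PLEOSDRAFT_1103742) had 3.47 to 4.57 FPKM in culture 1, 4.07 to 6.76 FPKM in culture 2 and 9.08 to 15.1 FPKM in culture 3. MCM2 and MCM4 have several genes each, and the most abundant of them were not 2-fold apart. For MCM2, PLEOSDRAFT_1067203 had 13.4, 16.1 and 21.1 FPKM, and the lower PLEOSDRAFT_1093484 had 3.30, 4.37 and 10.5 FPKM. For MCM4, PLEOSDRAFT_1112279 had 112, 166 and 147 FPKM, PLEOSDRAFT_1046893 had 133, 143 and 133 FPKM, PLEOSDRAFT_1078517 had 24.4, 28.4 and 26.1 FPKM, and the lowest, PLEOSDRAFT_1032973, had 5.42, 6.52 and 20.7 FPKM. In all, 6 of these 10 genes lay 2-fold apart, each highest in culture 3, and 4 did not. The 10 are named by orthology number alone. The GO term mitotic DNA replication initiation, picked for its wide spread, has 10 genes, and its leading gene averaged 26.8 FPKM. PLEOSDRAFT_1112279 and PLEOSDRAFT_1046893 lie above that level and so do not carry the term, and whether they are MCM subunits was not tested. All 10 genes of the term were highest in culture 3 by FPKM, and 7 lay 2-fold apart. The sliding clamp PCNA (PLEOSDRAFT_1110201) had 25.2, 18.5 and 65.4 FPKM, and a DNA primase subunit (PLEOSDRAFT_1088181) had 4.77, 4.68 and 14.9 FPKM. Of the flap endonuclease FEN1, PLEOSDRAFT_1034694 had 34.7, 45.3 and 40.8 FPKM and PLEOSDRAFT_1044826 had 3.83, 5.24 and 11.1 FPKM. Of 3 DNA ligase genes with the same orthology number, PLEOSDRAFT_1053971 had 3.52, 3.96 and 9.70 FPKM, PLEOSDRAFT_1076810 had 2.70, 3.58 and 6.37 FPKM and PLEOSDRAFT_1103885 had 4.02, 3.93 and 4.58 FPKM. So the genes of a single orthology number differed from each other in whether culture 3 stood out. The pathway's share of summed FPKM differed only 1.32-fold, at 0.128%, 0.146% and 0.168%. The most abundant gene that KEGG places in it, PLEOSDRAFT_1111473, is described as a subunit of NADH dehydrogenase and had 151, 179 and 149 FPKM. In the cell cycle and meiosis list, which shares members with DNA replication, 23 of the 139 genes at 1 FPKM or more (16.5%) lay 2-fold or more apart, close to the 12.6% of all genes. By FPKM 21 of the 23 were highest in culture 3, against the 52.9% of all genes 2-fold apart.

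Branched-chain amino acid synthesis showed the widest spread of the 99 pathways with at least 10 genes at 1 FPKM or more. Its 15 genes held 0.0892%, 0.0999% and 0.282% of summed FPKM in cultures 1, 2 and 3, a ratio of 3.17 by FPKM and 2.81 under TMM scaling. Acetolactate synthase (PLEOSDRAFT_42813), the enzyme of the first shared step, had 102, 117 and 327 FPKM, and its regulatory subunit (PLEOSDRAFT_1041271) had 41.9, 52.0 and 164 FPKM. Ketol-acid reductoisomerase (PLEOSDRAFT_1090361), which acts next, had 87.3, 111 and 522 FPKM. For all 3 genes cultures 1 and 2 lay close together and culture 3 lay far above them. On the leucine branch, 2-isopropylmalate synthase (PLEOSDRAFT_1110544) had 31.9, 38.2 and 91.1 FPKM, isopropylmalate dehydratase (PLEOSDRAFT_1063965) 37.8, 37.8 and 219.8 FPKM and isopropylmalate dehydrogenase (PLEOSDRAFT_50455) 85.2, 87.1 and 205 FPKM. Culture 3 was the highest in each. Of the 15 pathway genes, 8 (53.3%) lay 2-fold or more apart (7 under TMM), against 12.6% of all genes at 1 FPKM or more. Low genes with the same orthology numbers as the enzymes above were not 2-fold apart. They are PLEOSDRAFT_1101810 of the reductoisomerase, with 10.3, 10.2 and 8.66 FPKM, and PLEOSDRAFT_1078141 and PLEOSDRAFT_52691 of the synthase, with 2.74, 4.15 and 3.91 FPKM and 1.46, 1.93 and 1.54 FPKM. Neither gene of dihydroxy-acid dehydratase, a further enzyme of the pathway, lay 2-fold apart. PLEOSDRAFT_1066801 had 32.4, 39.9 and 48.7 FPKM, and PLEOSDRAFT_1104435 had 16.0, 11.2 and 12.7 FPKM and was highest in culture 1.

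Other pathways with a ratio of 1.5 or more were pantothenate and CoA synthesis at 2.07, lysine synthesis at 1.74 and the proteasome at 1.56, all highest in culture 3 by FPKM and under TMM scaling. Under TMM the proteasome fell below that limit, at 1.34, and 8 of the 99 pathways reached it, 3 highest in culture 3 and 5 highest in culture 1. Those 5 were protein processing in the endoplasmic reticulum at 1.54, phenylalanine metabolism at 1.54, phenylalanine, tyrosine and tryptophan synthesis at 1.59, biotin metabolism at 1.57 and prodigiosin synthesis at 1.64. The last 2 are not separate results, because the same gene, PLEOSDRAFT_1068846, made up 75.4% of biotin metabolism and 80.6% of prodigiosin synthesis. Phenylalanine, tyrosine and tryptophan synthesis is led by PLEOSDRAFT_1094120, which was high in culture 1 alone, as given below. By FPKM 17 of that pathway's genes were highest in culture 3, 4 in culture 2 and 3 in culture 1. Its summed level therefore does not show the order of most members. In phenylalanine metabolism 7 genes at 1 FPKM or more were highest in culture 1, 16 in culture 2 and 11 in culture 3. Pantothenate synthesis shares its leading members with the branched-chain pathway. The 44 proteasome genes held 0.416%, 0.478% and 0.645% of summed FPKM, and 40 of them were highest in culture 3 by FPKM, as were 46.5% of all genes at 1 FPKM or more. The median ratio over the 99 pathways was 1.14, and the smallest was 1.02, for glycerolipid metabolism. Over all 99, culture 3 was highest in 50, culture 2 in 34 and culture 1 in 15 by FPKM, whereas TMM scaling put culture 1 highest in 67, culture 3 in 28 and culture 2 in 4. Outside these pathways, a glycogen phosphorylase (PLEOSDRAFT_1058949), which releases sugar from stored glycogen, had 149.8, 132 and 371 FPKM, again highest in culture 3.

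**Figure D5:**
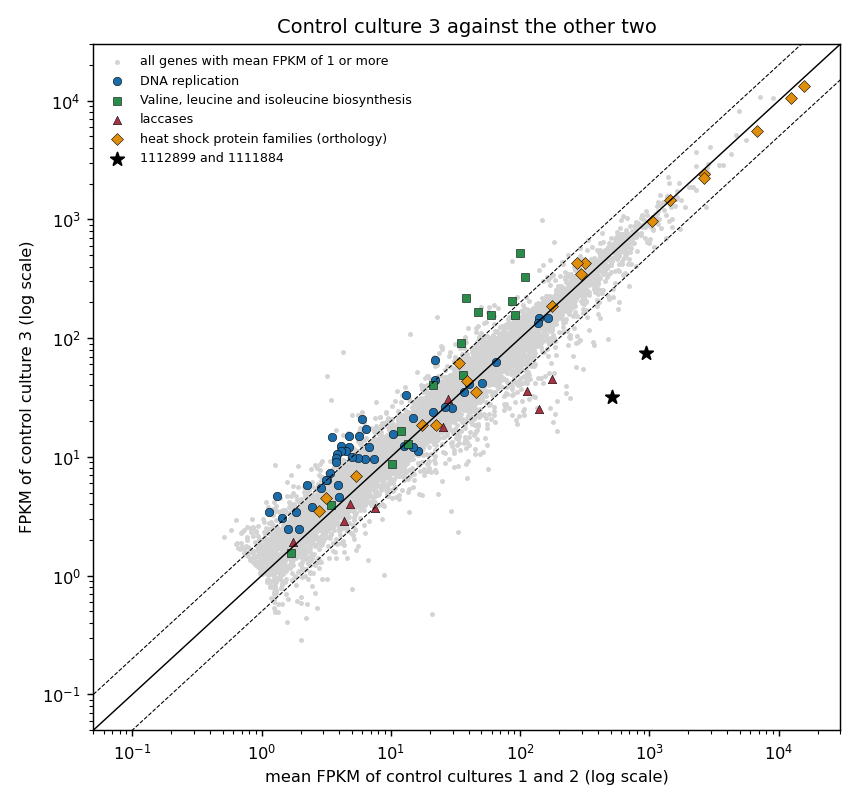
FPKM in control culture 3 against the mean of control cultures 1 and 2 (both log axes) for mRNA genes with a mean of 1 FPKM or more; the solid line marks equal levels and the dashed lines 2-fold differences, and the stars mark a phenylalanine ammonia-lyase (right) and a heme-thiolate peroxidase (left). DNA replication and branched-chain amino acid genes lie above the solid line in the main, 4 laccases and the stars lie below the lower dashed line, and the most abundant heat shock genes lie close to the solid line.

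Several of the genes with the widest spread among annotated genes of at least 10 FPKM were low in culture 3. The heme-thiolate peroxidase PLEOSDRAFT_1111884, of a family of secreted enzymes that put oxygen onto organic compounds, had 655, 373 and 31.7 FPKM in cultures 1, 2 and 3, a 20.7-fold range (24.01-fold under TMM). The 3 heme-thiolate peroxidase genes held 0.106%, 0.0652% and 0.0209% of summed FPKM. Another of them, PLEOSDRAFT_1110336, had 51.5, 54.1 and 86.3 FPKM and was highest in culture 3. Phenylalanine ammonia-lyase PLEOSDRAFT_1112899, which removes ammonia from phenylalanine, had 1284, 583 and 74.4 FPKM, a 17.3-fold range (20.0-fold under TMM). In both wide genes culture 1 was high, culture 2 intermediate and culture 3 low. The other phenylalanine ammonia-lyase gene, PLEOSDRAFT_173727, had 27.8, 26.1 and 24.9 FPKM and was almost flat. The pair held 0.188%, 0.0864% and 0.0142% of summed FPKM.

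The same order of cultures held for a transcription factor (PLEOSDRAFT_33270) with 311, 144 and 34.2 FPKM and for a gene with protein kinase terms (PLEOSDRAFT_1113269) with 340.1, 144 and 31.6 FPKM. Laccase PLEOSDRAFT_1089723, described above, also belonged to the 15 genes with the widest range among annotated genes of 10 FPKM or more. In the opposite direction, the carbohydrate-binding module family 13 protein PLEOSDRAFT_1054597 had 103, 194 and 979 FPKM, and a gene with an antioxidant term (PLEOSDRAFT_1093342) had 16.7, 28.4 and 150.4 FPKM. An enzyme of aromatic amino acid synthesis, 3-deoxy-7-phosphoheptulonate synthase (PLEOSDRAFT_1094120), was high in culture 1 alone, with 633, 154 and 187 FPKM.

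The steadiest annotated genes included a DNA clamp loader (PLEOSDRAFT_1079627) with 20.54, 20.65 and 20.57 FPKM, a methionine sulfoxide reductase (PLEOSDRAFT_46396), which repairs oxidised methionine, with 216, 217 and 215 FPKM and a Rab GDP-dissociation inhibitor (PLEOSDRAFT_1054110), which recycles vesicle GTPases, with 258, 257 and 255 FPKM. Their ranges were within 1.01-fold by FPKM and within 1.17-fold under TMM scaling, so how flat they are depends on the scaling.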

How the data were processed

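Poly(A) RNA of 3 untreated cultures was sequenced. The tools that the submitters' processing notes name are fastp, HISAT2 and StringTie. Not given in the sources used here: the versions, the genome build, the annotation, the counter and its strand setting. Values per gene are of 2 kinds. The authors deposited raw read counts as whole numbers, and the authors deposited FPKM in further columns. Each per-sample column was matched to a sample by name, and 0 were left over. The identifiers matched 0 of the 11849 genes of the reference table (assembly ASM1446616v1), which was not used, and no sequence or position is given.

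Levels, ranks, shares and ratios were computed from FPKM over the 10623 mRNA rows with Python 3.11.15, pandas 2.3.3, numpy 2.4.6 and scipy 1.17.1, and plotted with matplotlib 3.10.9. Spread was described for genes with a mean of at least 1 FPKM. The common biological coefficient of variation was estimated from counts with edgeR 4.0.16 (limma 3.58.1, R 4.3.3) under TMM scaling with an intercept only, and again with the size factors of DESeq2 1.42.0. That step was tested on simulated data. Total counts were 41827309 to 48205358 per library. A floor of 3 counts was used for genes at 0. It allows for counting error alone, because PCR copies of a molecule are counted as separate reads. No comparison between groups and no p-value was computed.

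Gene groups are 42 lists built from words or orthology and enzyme numbers in the annotation columns. Members and lists were chosen with earlier results of these data known. Some lists were narrowed after the annotation columns were read. The heat shock family, amino acid biosynthesis, gluconeogenic, glyoxylate, heme-thiolate peroxidase, phenylalanine ammonia-lyase and cellulase family lists were added after values were seen. Genes were named by a rule: the 30 most abundant genes, the 2 most abundant of each list, the leading gene of each of the 10 largest pathways and 10 largest terms, and, among annotated genes of at least 10 FPKM, the 15 with the largest and the 10 with the smallest range. All hydrophobins, laccases and ligninolytic peroxidases were covered by the rule. Members of the pathways that varied most, the all-or-none genes, further members of the lists and the silent genes were named after their values were seen. Alternatives were leaving out each culture, TMM or DESeq2 scaling, other thresholds, shares of raw counts and dividing a gene over its pathways. TMM values for the phenylalanine ammonia-lyase gene and for genes high or low in a single culture, and the HSP20 share without each culture, were added after seeing the data. An item is left out and not reported here.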

Additional observations from a re-analysis of the deposited data

Results flagged for a closer look

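The 59 tRNA rows of the deposited table, which no level or share above uses, held 197 counts over the 3 control libraries. The counts were 63, 79 and 55 in cultures 1, 2 and 3, in 22, 26 and 24 of the rows. They drew attention because they lie above the limit that a count of 0 allows, in libraries made from poly(A) RNA. A group of 3 samples is too small for the check for outlying samples used here, so no culture was examined by it.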

How the results depend on the processing

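Of 86 alternative values for 23 results, 65 stayed within the stated limits (1 SD, or 1.5 times for a count) and 21 moved. These values are levels, shares and counts with no sign; which culture is highest can turn under TMM scaling, as given above for ribosomal proteins and for the pathways. Leaving out each culture in turn gave 137 to 167 silent genes (98 with all 3), a median coefficient of variation of 11.8 to 17.6% (16.7%), 308 to 944 genes 2-fold apart (1186) and a common biological coefficient of variation of 0.172 to 0.282 (0.236). In each case fewer cultures enter the value. A mean under 0.1 FPKM in place of no count gave 299 silent genes, and adding 1 FPKM to each level left 724 genes 2-fold apart. As a share of raw counts, which favours long transcripts, the top 10 genes held 12.2%, ribosome 3.12%, endocytosis 4.94%, spliceosome 4.72%, oxidative phosphorylation 1.88% and the structural constituents of the ribosome 3.33%. With each gene divided over its pathways, protein processing in the endoplasmic reticulum held 5.24%, endocytosis 1.73%, spliceosome 1.52% and oxidative phosphorylation 2.44%. No paired analysis was possible because no groups were compared and the results come from no test. Depth limits the low genes: in the class of 0.1 to 1 FPKM Poisson counting alone gives a median coefficient of variation of 20.4%.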
